A study of Mus musculus with 4 samples.

Results

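The collagen genes of mouse skeletal muscle were taken as all genes whose name on the array is Col followed by a chain number, the letter a and a second number. This gave 40 genes with 81 probes, of 27597 genes with 41174 probes on the array. Messenger RNA was measured on 1-colour Agilent arrays in muscle of 4 genotypes, with 1 array each: ob/ob TBP-2-/-, ob/ob, TBP-2-/- and WT. All mice were 10 weeks old and ate freely. TBP-2 is another name of Txnip, the thioredoxin-interacting protein, which also limits the entry of glucose into cells. The ob/ob mutation removes the satiety hormone leptin and makes mice obese, so the TBP-2-/- and WT arrays form the lean background. The labels do not give the strain, the sex, the muscle taken, the part of TBP-2 that is deleted, or whether each RNA was from 1 mouse or from several. In the label of the ob/ob sample the genotype is also spelled Tob/ob, and the title was used.

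Collagens are secreted proteins whose chains wind around each other into a helix, and they form much of the connective tissue that wraps fibres, bundles and whole muscles and joins them to tendon. Fibrillar collagens such as types I, III and V build the banded fibrils that bear tension, and type XI lies inside thin fibrils, as known from cartilage. Type IV collagens form the sheet-like network of the basement membrane around every muscle fibre. FACIT collagens sit on the surface of fibrils. A few collagens mark junctions: type XXII lies where muscle meets tendon, and types XIII and XXV are membrane-spanning chains that act where nerve meets muscle.

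Signals are given in units of each array's 75th percentile over all non-control spots, so a value of 1 equals that percentile, and a gene is represented by its brightest probe. Signals were compared between arrays and not between genes, since probes differ in brightness. A summed signal leans to the brightest probes of its list, and the brightest members of a class were picked for naming only. Differences are on the log2 scale, with the standard error (SE) of the scanner's error model, which leaves out variation between animals. Each genotype has 1 array, so the differences between genotypes carry no replicate check, and "higher" and "lower" describe these arrays. A gene counts as different at 2-fold or more. In bulk muscle, fewer cells of a type and less RNA per cell cannot be told apart.

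On 1 slide and in 1 scan, the 4 arrays had between 22675 and 24221 probes well above background, and no spot was saturated. Txnip had a signal of 0.607 in ob/ob TBP-2-/- muscle, 40.95 in ob/ob muscle, 2.70 in TBP-2-/- muscle and 45.2 in WT muscle, so both arrays labelled TBP-2-/- were low. Markers of skeletal muscle fibres had summed signals of 6449, 5971, 6056 and 6954 on the arrays in the same order. Among them Myh7 differed more than the sum, with 447, 666, 961 and 1083. It was 2.15-fold lower in ob/ob TBP-2-/- than in TBP-2-/- muscle, 1 of 5 markers against 1.54% of all genes. Of the 40 collagen genes, 32 passed the scanner's test of being well above background on every array, 5 on some arrays, and 3 (Col9a3, Col28a1 and Col10a1) on none. The fibrillar class had 10 of 11 members above background on every array, the basement membrane class 6 of 6, the FACIT class 7 of 9 and the junction collagens 1 of 3.

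RefSeq promoter entries (GRCm38.p6, 250 bases before to 50 after the start) matched 32 of the 40 genes. Sequences are shown for 2 pairs of chains that go into the same collagen molecule and for Col1a2, so that the reader can set the letters beside the values that follow. Col4a1 and Col4a2, the chains of the main type IV collagen, lie head to head on chromosome 8, and their promoter windows share 78 bases. In the pair of sequences below capitals mark the shared stretch, which reads as the reverse complement from the other gene, at chr8:11312777-11312854. The Col4a1 window is on the minus strand at chr8:11312777-11313076 and the Col4a2 window on the plus strand at chr8:11312555-11312854.
Col4a1: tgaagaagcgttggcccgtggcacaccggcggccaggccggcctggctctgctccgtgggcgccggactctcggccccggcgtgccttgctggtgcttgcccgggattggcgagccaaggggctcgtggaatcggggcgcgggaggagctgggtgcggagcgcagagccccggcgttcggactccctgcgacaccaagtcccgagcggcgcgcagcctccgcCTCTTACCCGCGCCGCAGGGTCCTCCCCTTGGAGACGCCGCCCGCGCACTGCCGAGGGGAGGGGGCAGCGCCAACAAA
Col4a2: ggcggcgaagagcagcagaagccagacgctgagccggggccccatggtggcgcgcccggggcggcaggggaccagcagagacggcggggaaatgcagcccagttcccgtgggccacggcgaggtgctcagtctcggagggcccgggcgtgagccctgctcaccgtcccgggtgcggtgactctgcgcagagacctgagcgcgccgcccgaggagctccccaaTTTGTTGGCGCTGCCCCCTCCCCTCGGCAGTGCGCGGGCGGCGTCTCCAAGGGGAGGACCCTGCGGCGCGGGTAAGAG

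The next pair codes for the type XI chains Col11a1 (plus strand, chr3:114030290-114030589) and Col11a2 (plus strand, chr17:34038888-34039187), which had the largest differences among the fibrillar genes. Capitals mark 3 short motifs, searched on both strands: the CCAAT box (CCAAT, or ATTGG on the other strand), the GC box (GGGCGG, or CCGCCC) and the TATA box (TATAAA).
Col11a1: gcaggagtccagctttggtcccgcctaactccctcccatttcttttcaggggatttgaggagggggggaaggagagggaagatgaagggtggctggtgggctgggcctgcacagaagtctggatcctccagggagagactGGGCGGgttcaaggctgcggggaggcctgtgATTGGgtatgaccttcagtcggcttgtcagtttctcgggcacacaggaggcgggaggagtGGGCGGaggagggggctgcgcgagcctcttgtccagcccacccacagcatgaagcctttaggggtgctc
Col11a2: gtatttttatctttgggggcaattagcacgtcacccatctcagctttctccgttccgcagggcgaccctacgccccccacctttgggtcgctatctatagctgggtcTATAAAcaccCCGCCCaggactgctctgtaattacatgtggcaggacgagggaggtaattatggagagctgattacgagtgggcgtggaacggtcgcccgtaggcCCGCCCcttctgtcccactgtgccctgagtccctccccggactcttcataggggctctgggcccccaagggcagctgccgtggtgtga

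Col11a1 holds 1 CCAAT box and 2 GC boxes in this window, and Col11a2 holds 2 GC boxes and 1 TATA box. The Col1a2 window (plus strand, chr6:4505368-4505667), for a chain of type I collagen, holds 2 CCAAT boxes and 2 GC boxes.
Col1a2: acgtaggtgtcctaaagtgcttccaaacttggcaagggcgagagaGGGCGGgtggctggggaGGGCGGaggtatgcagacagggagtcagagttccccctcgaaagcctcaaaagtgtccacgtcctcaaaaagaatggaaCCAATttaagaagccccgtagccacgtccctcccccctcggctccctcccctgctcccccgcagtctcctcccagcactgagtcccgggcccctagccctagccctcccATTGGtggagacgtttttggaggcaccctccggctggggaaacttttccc

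Among all 35 collagen entries, 34.3% held a CCAAT box, against 37.4% of all 32851 promoter entries. A GC box was found in 57.1% of collagen entries, against 35.7% of all entries, and a TATA box in 14.3%, against 13.6%. These matches describe letters in the windows and were not tied to any difference between genotypes.

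By the 75th percentile, collagen transcripts were most often lowest in WT muscle and highest in ob/ob TBP-2-/- muscle. The WT array had the lowest signal for 19 of the 32 collagen genes measured on every array, and the ob/ob TBP-2-/- array had the highest for 24. Among all 14908 genes measured on every array, WT was lowest for 23.8% and ob/ob TBP-2-/- highest for 29.1%. With spike-in scaling the ob/ob TBP-2-/- array was highest for 10 of the 32 collagens (5.18% of all genes) and WT lowest for 29 (54.7%). This array order and the gaps that follow were not planned before the data were seen. A gap of 2-fold or more to each other array was present on the WT array alone: 9 of 36 collagens (25%) lay that far below the others, against a background of 0.836% of 15320 genes. No collagen lay 2-fold or more above or below all the others on any of the other 3 arrays, where the background below was 0.206% for ob/ob TBP-2-/-, 0.246% for ob/ob and 0.127% for TBP-2-/-, and that above 1.26%, 0.596% and 0.761%. None lay that far above on WT either (background 1.13%). Those 9 genes were Col8a2, Col11a1, Col22a1, Col12a1, Col11a2, Col13a1, Col9a1, Col1a1 and Col16a1, and the nearest gene outside the rule was Col27a1, whose smallest gap was at least 1.41-fold.

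**Figure D1:**
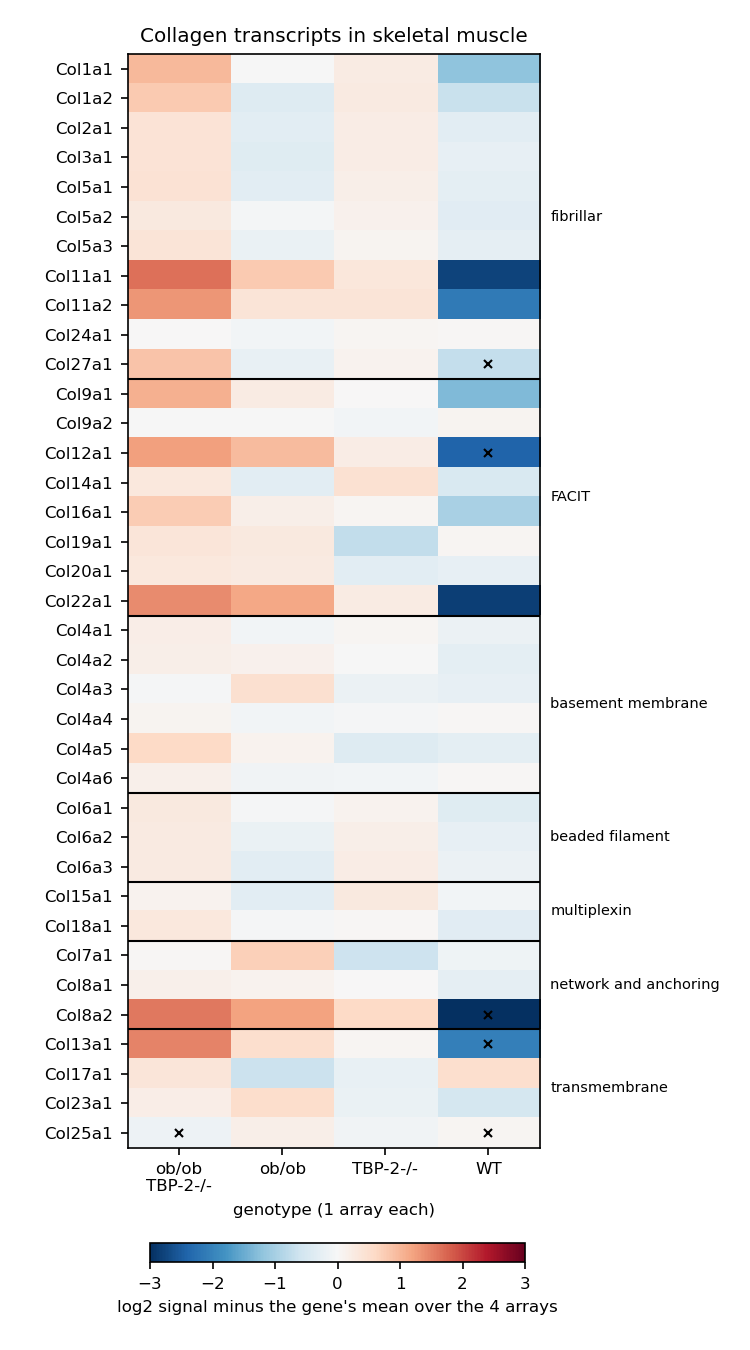
Level of each of the 37 collagen genes that were above background on at least 1 array, with 1 column per genotype and rows grouped by class. Colour gives the log2 signal minus the gene's own mean over the 4 arrays, crosses mark signals not well above background (set at the array's lowest measurable signal where they were lower), and the darkest blue cells of Col8a2, Col22a1, Col11a1, Col12a1, Col11a2 and Col13a1 all fall on the WT array.

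Markers of tendon moved with these genes. In the tendon list 8 of 9 genes were 2-fold or more lower in WT than on each other array, and its summed signal was 124 in ob/ob TBP-2-/-, 93.8 in ob/ob, 66.6 in TBP-2-/- and 20.9 in WT muscle. Most of that sum was Thbs4, at 70.2, 54.6, 34.5 and 15.1. Comp, a matrix protein of tendon and cartilage, had signals of 8.45, 5.69, 4.28 and 0.133 in that order, Tnmd, the tendon membrane protein tenomodulin, 4.10, 2.37, 1.42 and 0.112, and Fmod, a fibril-binding proteoglycan, 19.7, 15.2, 12.1 and 0.503. Scx, the tendon transcription factor, had 8.23, 7.66, 6.59 and 4.62, and Mkx was not well above background in WT muscle. The part of tendon tissue in the collagen differences was not tested. Fibroblast markers had summed signals of 275, 213, 278 and 245, most of it Dcn at 211, 163, 209 and 192. Gene by gene, 7 of 7 fibroblast and 4 of 4 macrophage markers were above 0 with TBP-2 loss on both backgrounds. Over all genes 39.4% were above 0 on the lean and 54.5% on the ob/ob background. Endothelial markers had 3 of 4 on the lean and 2 of 4 on the ob/ob background, and smooth muscle and pericyte markers 2 of 4 and 1 of 4. Adipocyte markers summed to 48.9, 19.3, 24.1 and 12.2, and Schwann cell markers to 6.56, 3.80, 6.65 and 2.30. In ob/ob TBP-2-/- minus ob/ob muscle 5 of 5 adipocyte and 0 of 4 Schwann cell markers were 2-fold or more higher (background 1.87%). In TBP-2-/- minus WT muscle it was 2 of 5 and 2 of 4 (background 1.72%). Cartilage markers summed to 0.440, 0.405, 0.371 and 0.442. Most of the cartilage sum was Sox9, a transcription factor of cartilage and other tissues, at 0.289, 0.306, 0.273 and 0.314, and Acan, Matn3 and Hapln1 did not exceed 0.0666 on any array. The part of these cell types was not tested either.

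**Figure D2:**
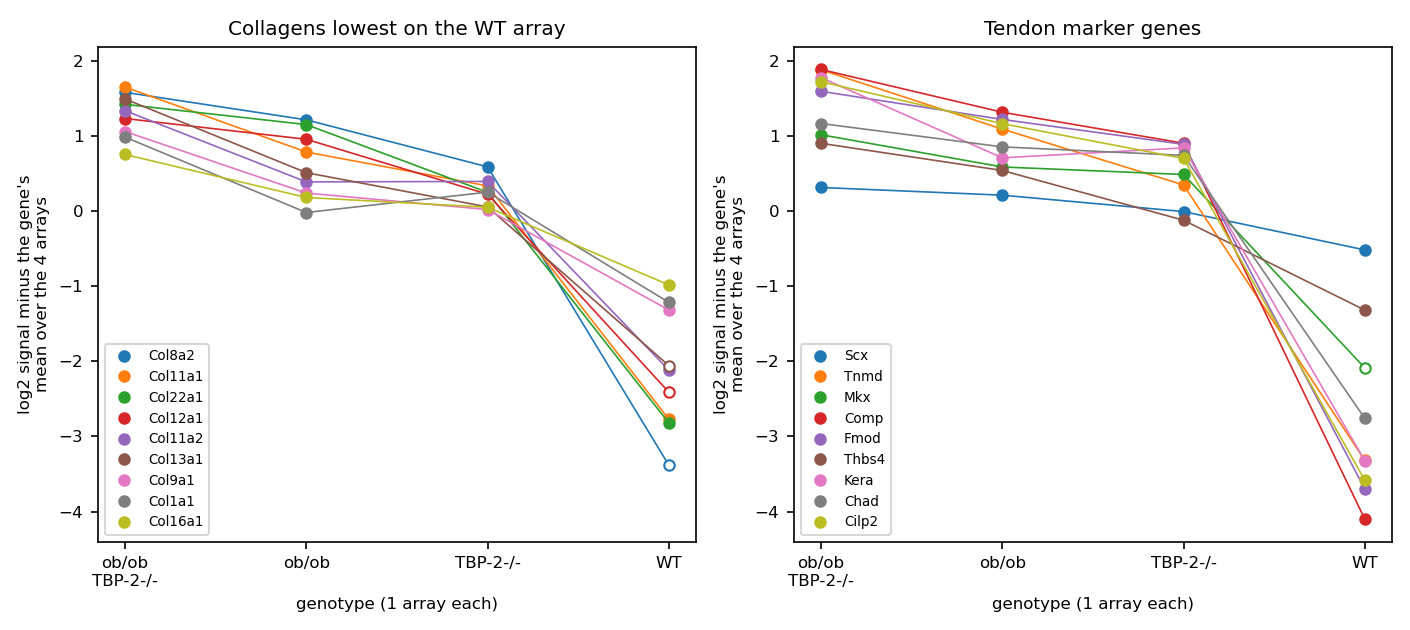
The 9 collagen genes at least 2-fold lower on the WT array (left) and the 9 tendon marker genes (right), as log2 signal minus the gene's mean over the 4 arrays, with 1 array per genotype; open circles are signals not well above background. All 9 collagens and all 9 tendon genes have their lowest point on the WT array, and Scx is the tendon gene with the flattest line.

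The fibrillar class held 3 of the 6 measured collagens that were 2-fold or more higher in TBP-2-/- than in WT muscle (background 1.72% of all genes) and all 3 that were so in ob/ob TBP-2-/- against ob/ob muscle (background 1.87%). Col1a1, the alpha 1 chain of type I collagen (probe on chromosome 11 at 94767851 to 94767910, mm8), had signals of 109 in ob/ob TBP-2-/- muscle, 54.2 in ob/ob, 65.4 in TBP-2-/- and 23.7 in WT muscle. It was 2.76-fold higher in TBP-2-/- than in WT muscle (log2 difference 1.47 ± 0.20, SE) and 2.004-fold higher in ob/ob TBP-2-/- than in ob/ob muscle (1.003 ± 0.20). Col1a1 was the single collagen past 2-fold with TBP-2 loss on both backgrounds, which share no array, against 0.369% of all genes. On the ob/ob background it was under 2-fold with quantile normalization (0.95), with normexp and quantile normalization (0.92) and with spike-in scaling (0.47). Its other probes gave 1.44 and 1.60 on the lean background and 1.17 and 1.14 on the ob/ob background.

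Col1a2, whose chain joins with that of Col1a1 in type I collagen (chromosome 6 at 4490619 to 4490678), had signals of 193 in ob/ob TBP-2-/-, 86.2 in ob/ob, 136 in TBP-2-/- and 71.5 in WT muscle. With TBP-2 loss it was higher by 1.16 ± 0.20 on the ob/ob and 0.92 ± 0.20 on the lean background. The partner chains differed in how far apart ob/ob and WT muscle lay: 1.20 ± 0.20 for Col1a1 and 0.27 ± 0.20 for Col1a2. Col3a1, the type III chain of pliable fibrils, had 74.8, 43.5, 65.8 and 47.3 on the arrays in the same order. Its WT and ob/ob signals lay close together (-0.12 ± 0.20), and both arrays without TBP-2 were above them, by 0.78 on the ob/ob and 0.48 on the lean background.

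The type XI chains stood furthest apart among the fibrillar genes. Col11a1 (chromosome 3 at 114211239 to 114211297) had signals of 1.44 in ob/ob TBP-2-/-, 0.792 in ob/ob, 0.579 in TBP-2-/- and 0.0673 in WT muscle. It was 8.604-fold higher in TBP-2-/- than in WT muscle (3.105 ± 0.28) and 11.8-fold higher in ob/ob muscle than in WT muscle (3.56 ± 0.28). With normexp and quantile normalization those differences were 1.54 and 1.89. On the arrays other than WT its gaps were smaller, 0.86 ± 0.20 for ob/ob TBP-2-/- over ob/ob and 1.31 ± 0.20 for ob/ob TBP-2-/- over TBP-2-/-.

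Col11a2 (chromosome 17 at 33676507 to 33676566) had 3.21, 1.66, 1.67 and 0.293 on the arrays in the same order, and lay above WT muscle by 5.70-fold in TBP-2-/- and by 5.68-fold in ob/ob muscle (log2 2.51 and 2.50, or 1.84 and 1.82 with normexp and quantile normalization). A dimmer Col11a2 probe did not follow: it gave -0.22 for TBP-2-/- minus WT and 0.27 for ob/ob minus WT, at raw signals of 10.8 and 15.2 against 11.4 in WT, near the lowest signal called above background there (11.3). The other probes of Col11a1 were not above background in WT, ob/ob or TBP-2-/- muscle, so they give no check of its differences from WT.

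Col27a1, a fibrillar chain known from cartilage, had 0.120, 0.0564 and 0.0706 in ob/ob TBP-2-/-, ob/ob and TBP-2-/- muscle and was not well above background in WT muscle. It was 2.13-fold higher in ob/ob TBP-2-/- than in ob/ob muscle (1.09 ± 0.31), the largest SE among the fibrillar genes, and 0.26 with normexp and quantile normalization. The remaining fibrillar members, Col2a1, Col5a1, Col5a2, Col5a3 and Col24a1, lay between 0.02 and 0.53 for TBP-2 loss on the lean background. On the ob/ob background Col2a1, the type II chain, was at 0.73, Col5a1, a chain that nucleates type I fibrils, at 0.75, Col5a3 at 0.57, Col5a2 at 0.36 and Col24a1 at 0.09. Of the measured fibrillar genes, 11 of 11 were above 0 with TBP-2 loss in ob/ob muscle (10 with normexp and quantile normalization, 9 with spike-in scaling) and 10 of 10 in lean muscle (9 with quantile normalization, with or without normexp). Over all genes, 54.5% were above 0 in ob/ob and 39.4% in lean muscle. This direction was not particular to fibrillar genes: 33 of 36 measured collagens were above 0 in ob/ob and 24 of 32 in lean muscle. FACIT genes had 8 of 8 and 4 of 7, basement membrane genes 5 of 6 and 3 of 6, and beaded filament genes 3 of 3 in both.

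FACIT collagens held the largest difference of the family measured on both arrays of a pair. Col22a1, the collagen of the muscle-tendon junction (chromosome 15 at 71627443 to 71627502), had signals of 16.8 in ob/ob TBP-2-/-, 13.9 in ob/ob, 7.45 in TBP-2-/- and 0.887 in WT muscle. Against WT muscle it was higher by 15.7-fold in ob/ob muscle (3.97 ± 0.20) and by 8.39-fold in TBP-2-/- muscle (3.07 ± 0.20). In ob/ob TBP-2-/- muscle it was 2.25-fold above TBP-2-/- muscle (1.17 ± 0.20) and within 0.27 ± 0.20 of ob/ob muscle. A second Col22a1 probe gave 4.398, 3.19, 1.56 and 0.35 for the same differences.

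Col12a1, a fibril-surface collagen of dense connective tissue (chromosome 9 at 79385147 to 79385206), had 0.481 in ob/ob TBP-2-/-, 0.397 in ob/ob and 0.239 in TBP-2-/- muscle, and was not well above background in WT muscle. Its signal was at least 10.3-fold higher in ob/ob and at least 6.21-fold higher in TBP-2-/- than in WT muscle, where the WT side is set at the lowest signal measurable on that array or at the probe's own signal if that is higher. Between ob/ob TBP-2-/- and TBP-2-/- muscle it differed by 1.01 ± 0.21, or by 0.70 with normexp and quantile normalization.

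Col16a1, another collagen of fibril surfaces (chromosome 4 at 129601405 to 129601464) had 4.37, 2.94, 2.68 and 1.31 in ob/ob TBP-2-/-, ob/ob, TBP-2-/- and WT muscle, a 2.24-fold difference between ob/ob and WT muscle. Col9a1, known as a cartilage chain that coats type II fibrils, had 0.315, 0.178, 0.153 and 0.0607, and lay above WT muscle by 2.94-fold in ob/ob and by 2.53-fold in TBP-2-/- muscle (log2 1.56 and 1.34, or 0.55 and 0.41 with normexp and quantile normalization). Col14a1, which binds fibrils in tendon and skin, took another order, with 2.37, 1.55, 2.62 and 1.41: both arrays without TBP-2 lay above both arrays with it, by 0.62 ± 0.20 on the ob/ob and 0.90 ± 0.20 on the lean background, and the ob/ob genotype made little difference (-0.15 without TBP-2, 0.14 with it).

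Col19a1 had 0.214, 0.205, 0.0993 and 0.174, and was 2.16-fold higher in ob/ob TBP-2-/- than in TBP-2-/- muscle (1.11 ± 0.24). Another of its probes gave -1.17 for that difference, and the median of its probes -0.03, so no direction is given for Col19a1. Col9a2 and Col20a1 lay between -0.16 and 0.63 in the 4 comparisons.

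Basement membrane collagens differed little. Col4a1 (chromosome 8 at 11198981 to 11199040) had 8.58 in ob/ob TBP-2-/-, 7.14 in ob/ob, 7.85 in TBP-2-/- and 6.60 in WT muscle, and its head-to-head neighbour Col4a2 (chromosome 8 at 11448812 to 11448871) had 9.49, 9.09, 8.22 and 6.83. The differences of this pair stayed within 0.30 of each other in all 4 comparisons. Col4a4, a chain known from the kidney's basement membrane, had 1.31, 1.17, 1.20 and 1.26. None of the 6 genes reached 2-fold in any comparison by its brightest probe and the 75th percentile, and the nearest was Col4a5, at 0.97 ± 0.25 for ob/ob TBP-2-/- minus TBP-2-/- muscle. Another Col4a6 probe gave 1.02 there, against 0.25 for the brightest. With spike-in scaling Col4a2 (1.07), Col4a3 (1.38) and Col4a5 (1.06) were past 2-fold in ob/ob minus WT muscle, where that scaling raises every gene by 0.66. The other neighbouring pairs, Col4a4 with Col4a3 and Col4a6 with Col4a5, differed from each other by up to 0.82 and 0.73, and the signals of Col4a3 and Col4a5 did not exceed 0.104 and 0.161 on any array.

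Both other junction collagens had arrays on which they could not be measured. Col13a1, the transmembrane collagen of the neuromuscular junction (chromosome 10 at 61233886 to 61233945), had 0.451, 0.228 and 0.166 in ob/ob TBP-2-/-, ob/ob and TBP-2-/- muscle and was not well above background in WT muscle. It was at least 5.93-fold higher in ob/ob and at least 4.32-fold higher in TBP-2-/- than in WT muscle, and 2.71-fold higher in ob/ob TBP-2-/- than in TBP-2-/- muscle (1.44 ± 0.21), a difference of 0.81 with normexp and quantile normalization. Col25a1, a membrane collagen needed for motor innervation in the mouse, had 0.0421 in ob/ob and 0.0347 in TBP-2-/- muscle by its brightest probe, which was not well above background on the other arrays and gave bounds of 1.25-fold at most. Another Col25a1 probe (chromosome 3 at 130585092 to 130585151) was well above background in WT muscle alone, at 0.128, and was at least 4.38-fold lower in TBP-2-/- and at least 3.80-fold lower in ob/ob than in WT muscle. The probes of Col25a1 disagree, so no direction is given for it.

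In the remaining classes 1 gene stood far apart. Col8a2, a network collagen known from the cornea and vessel walls (chromosome 4 at 125816501 to 125816560), had 1.20 in ob/ob TBP-2-/-, 0.931 in ob/ob and 0.604 in TBP-2-/- muscle and was not well above background in WT muscle. It was at least 24.2-fold higher in ob/ob and at least 15.7-fold higher in TBP-2-/- than in WT muscle, the largest bounds of the family, and rests on a single probe. Its partner in type VIII collagen, Col8a1, had 5.37, 5.20, 4.87 and 4.03, with no difference above 0.37.

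Col7a1, the chain of anchoring fibrils known from skin, was lower with TBP-2 loss on both backgrounds. It had 4.22 in ob/ob TBP-2-/-, 6.70 in ob/ob, 2.68 in TBP-2-/- and 3.78 in WT muscle, a difference of -0.67 ± 0.20 on the ob/ob and -0.50 ± 0.20 on the lean background. It was higher with the ob/ob genotype (0.65 and 0.82 without and with TBP-2). The single Col7a1 probe did not reach 2-fold in any comparison by the 75th percentile.

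No beaded filament collagen reached 2-fold in any comparison by its brightest probe. Relative to all genes, their median was 0.52 in TBP-2-/- minus WT and 0.42 in ob/ob TBP-2-/- minus ob/ob muscle. Fibrillar genes had 0.58 and 0.75 there and basement membrane genes 0.08 and 0.18. For the ob/ob genotype the beaded filament median was 0.10 with TBP-2 and 0.03 without it. Col6a3 had 16.4, 11.1, 15.9 and 12.1 in ob/ob TBP-2-/-, ob/ob, TBP-2-/- and WT muscle, Col6a1 6.48, 5.13, 5.75 and 4.13, and Col6a2 2.59, 1.89, 2.46 and 1.81. These type VI chains, which assemble together around muscle fibres, were 0.34 to 0.57 higher without TBP-2 on the ob/ob background and 0.39 to 0.48 higher on the lean background. With the ob/ob genotype they lay between -0.13 and 0.31. The multiplexins of vessel and fibre basement membranes had 1.43, 1.07, 1.62 and 1.24 (Col15a1) and 3.54, 2.81, 2.95 and 2.27 (Col18a1). By the 75th percentile the ob/ob differences were -0.18 without TBP-2 and -0.22 with it for Col15a1, and 0.27 and 0.31 for Col18a1. A dimmer Col15a1 probe gave 1.04 in TBP-2-/- minus WT and -1.21 in ob/ob TBP-2-/- minus TBP-2-/- muscle.

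Among the other transmembrane chains, Col23a1 had 0.164, 0.207, 0.123 and 0.0986 and lay 2.10-fold above WT muscle in ob/ob muscle (1.07 ± 0.26, or 0.44 with normexp and quantile normalization). Col17a1, known from skin hemidesmosomes, had 0.0883, 0.0444, 0.0594 and 0.0979, and was the single collagen 2-fold or more lower in a comparison, by 2.21-fold in ob/ob against WT muscle (-1.14 ± 0.37). With spike-in scaling it was at -0.48 and with normexp and quantile normalization at -0.30, and no collagen was then 2-fold lower there.

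Set side by side, the comparisons differed in the classes of the genes past 2-fold. In TBP-2-/- minus WT muscle, 6 of 32 measured collagens were 2-fold or more higher and 0 lower, against a background of 1.72% and 0.88% of all genes, and 3 more were higher by a bound (13.1% of genes above background on the TBP-2-/- array alone). The 3 fibrillar genes among the 6 were Col11a1, Col11a2 and Col1a1, and the FACIT genes were Col22a1, Col9a1 and Col16a1. In ob/ob TBP-2-/- minus ob/ob muscle, 3 of 36 were higher and 0 lower (backgrounds 1.87% and 0.815%), and all 3, Col1a2, Col27a1 and Col1a1, were fibrillar. With normexp and quantile normalization Col1a2 alone remained past 2-fold. With spike-in scaling, which lowers every gene by 0.53 in this comparison, none was higher and Col7a1 (-1.20) and Col4a3 (-1.04) were lower. Col17a1 at 0.99 and Col13a1 at 0.98 lay just under the threshold there, and Col1a1 at 1.003 just over it.

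For the ob/ob genotype with TBP-2 present (ob/ob minus WT), 7 of 32 collagens were higher and 1 lower, against 1.9% and 1.66% of all genes, and 3 more were higher by a bound (18.1%). The 7 were Col22a1, Col11a1, Col11a2, Col9a1, Col1a1, Col16a1 and Col23a1. Spike-in scaling raises every gene by 0.66 there and puts the median of all genes at 0.62. With it 13 collagens were higher and 0 lower, and the shares above do not apply to that count. Without TBP-2 (ob/ob TBP-2-/- minus TBP-2-/-), 6 of 36 were higher and 0 lower (backgrounds 1.81% and 1.54%): Col13a1, Col11a1, Col22a1, Col19a1 (whose probes disagree), Col9a1 and Col12a1. That count was 3 with spike-in scaling and 2, Col11a1 and Col22a1, with normexp and quantile normalization. Of the 32 genes measured on every array, Col22a1, Col11a1 and Col9a1 were past 2-fold with the ob/ob genotype both with and without TBP-2, against 0.436% of all genes; Col9a1 was under 2-fold in both with normexp and quantile normalization. The comparisons against WT share the WT array, so their agreement is no separate observation.

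Medians over the members, relative to the median of all genes measured in the same comparison, are given for the 3 largest classes. Over all collagens the relative median was 0.46 for TBP-2-/- minus WT, 0.36 for ob/ob TBP-2-/- minus ob/ob, 0.31 for the ob/ob array minus WT and 0.24 for ob/ob TBP-2-/- minus TBP-2-/-. Fibrillar genes had 0.58, 0.75, 0.21 and 0.26, FACIT genes 0.98, 0.24, 0.55 and 0.81, and basement membrane genes 0.08, 0.18, 0.30 and 0.13. With normexp background correction and quantile normalization the FACIT values were 0.44, 0.24, 0.29 and 0.44 in that order. A junction median rests on at most 2 measured genes and is not given. With TBP-2 loss, 22 of the 32 genes measured on all arrays were above 0 on both backgrounds, against 24.7% of all genes. Scaling to spike-in RNA lowers every gene by 0.53 in ob/ob TBP-2-/- minus ob/ob muscle and puts the median of all genes at -0.50. Then 15 of 36 collagens and 9 of 11 fibrillar genes, but 0 of 6 basement membrane genes, are above 0. The relative medians do not move under that scaling.

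**Figure D3:**
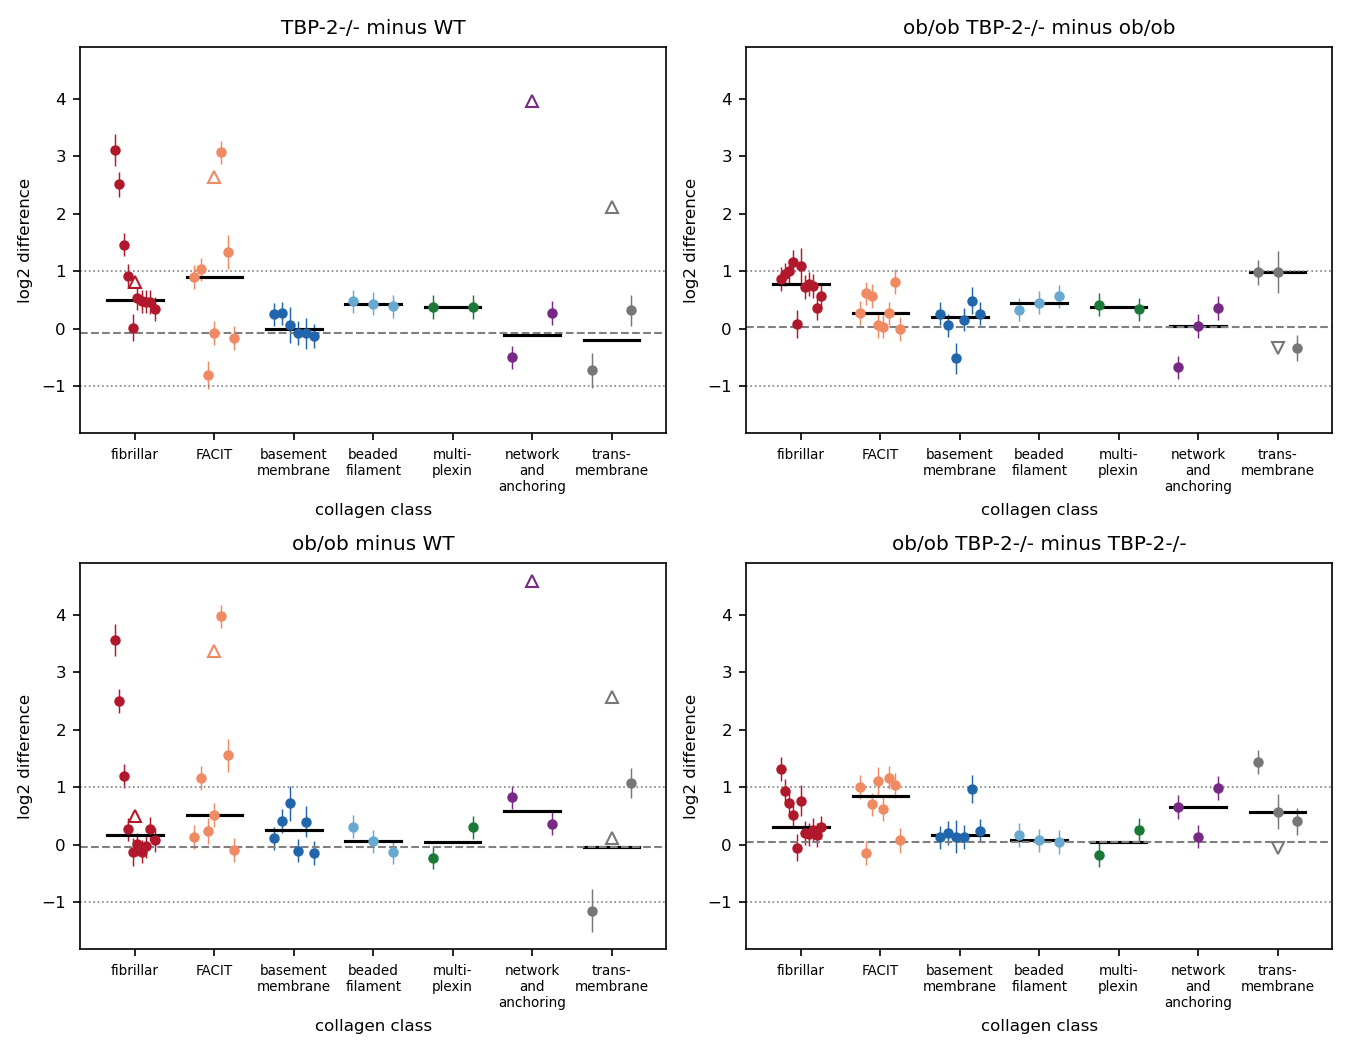
Log2 difference of each measured collagen gene in the 4 comparisons, by class, with the SE of the scanner error model as bars and the class median of measured genes as a black line. Open triangles are bounds for genes above background on 1 array of the pair (pointing up for at least that much higher, down for at least that much lower), the dashed line is the median of all genes and dotted lines mark 2-fold; all basement membrane points stay inside the dotted lines in all 4 panels (75th percentile scaling).

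The additive model was the only test this design allows. It fits a TBP-2 term and an ob/ob term to the 4 arrays with limma and leaves 1 residual degree of freedom, so its error is the departure from additivity and not the spread between mice. No collagen was called for either term after Benjamini-Hochberg adjustment over 16115 genes (limma, two-sided); the smallest adjusted p was 0.224 for TBP-2 (Col1a1) and 0.142 for ob/ob (Col9a1). Over all genes 9 were called higher and 6 lower for TBP-2 (0.0558% and 0.0372%), and 16 each way for ob/ob (0.0993%). At an unadjusted p under 0.05, 16 of 37 collagens passed for TBP-2, against 9.69% of all genes, and 14 of 37 for ob/ob, against 13.5%. The fibrillar class gave 9 of 11 for TBP-2 and 4 of 11 for ob/ob, the FACIT class 3 of 8 and 5 of 8, and the basement membrane class 0 of 6 and 1 of 6. Genes not above background in WT muscle (Col12a1, Col13a1, Col8a2, Col27a1 and Col25a1) entered the fit with their low WT signals. Col25a1 was not above background in ob/ob TBP-2-/- muscle either.

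The fitted TBP-2 term was 1.23 ± 0.19 for Col1a1 and 1.04 ± 0.17 for Col1a2 (limma adjusted p 0.224 and 0.231). For Col9a1 the fitted ob/ob term was 1.30 ± 0.20 (limma adjusted p 0.142). Col11a1 and Col22a1 departed furthest from additivity among collagens measured on every array: the TBP-2 difference on the ob/ob background minus that on the lean background was -2.24 ± 0.34 and -2.80 ± 0.29 (SE of the scanner error model), with no residual degree of freedom for a test. That value uses the WT array on 1 side, where both genes were lowest. The number of calls changed with the settings. A prior variance that follows the mean level called 7 collagens for ob/ob (Col7a1, Col9a1, Col11a1, Col11a2, Col13a1, Col16a1 and Col22a1). Spike-in scaling called 3 for TBP-2 and 6 for ob/ob. That fit had infinite prior degrees of freedom, so 1 pooled variance served all genes and each call had the same SE of 0.471. Its calls therefore follow the size of the fitted term alone. The range of calls over all genes is given below.

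**Figure D4:**
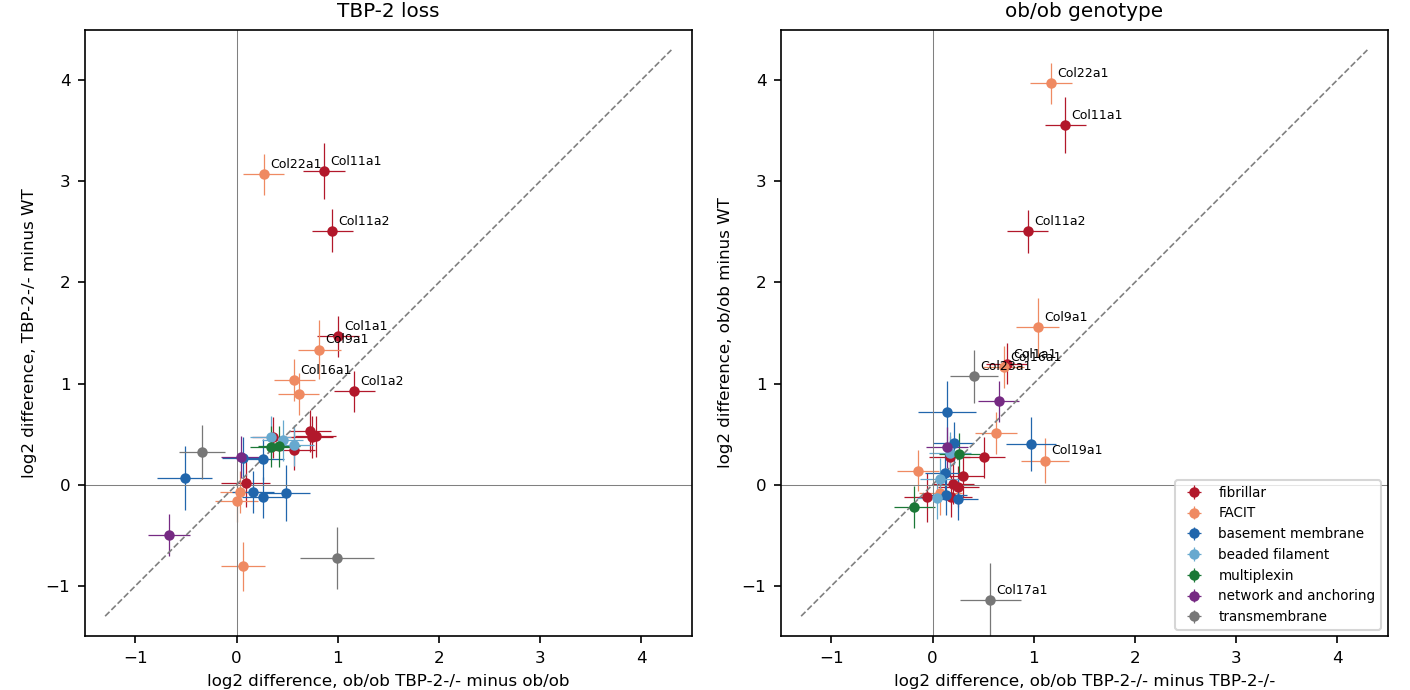
Log2 difference of each collagen gene on the 2 backgrounds for TBP-2 loss (left; ob/ob background across, lean background up) and for the ob/ob genotype (right; without TBP-2 across, with TBP-2 up), with SE bars of the scanner error model and colours by class. The dashed line marks equal differences; Col22a1, Col11a1 and Col11a2 lie far above it in both panels, where the upper axis uses the WT array, and Col1a1 and Col1a2 lie near it on the left.

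The genes that make, process, bind and degrade collagen were set beside the collagens. Of 34 genes for hydroxylation, folding, trimming and cross-linking, 27 were measured on every array, and none was 2-fold different in TBP-2-/- minus WT or ob/ob minus WT muscle among those measured on both arrays. Lox, the enzyme that starts cross-linking of collagen and elastin, was the exception in the other comparisons, with signals of 1.44 in ob/ob TBP-2-/-, 0.666 in ob/ob, 0.520 in TBP-2-/- and 0.372 in WT muscle. On the log2 scale its level in ob/ob TBP-2-/- muscle was 1.11 above that in ob/ob muscle and 1.47 above that in TBP-2-/- muscle, so 1 of 29 measured genes of the list was past 2-fold in each (backgrounds 1.87% and 1.81%). By a bound, 2 genes of the list were past 2-fold in TBP-2-/- minus WT muscle (13.1% of genes above background on the TBP-2-/- array alone). In ob/ob minus WT muscle it was 1 (18.1% of genes above background on the ob/ob array alone). In the additive limma fit 0 of 29 tested genes of the list were called for either term, and 11 (37.9%) had an unadjusted p under 0.05 for TBP-2 and 4 (13.8%) for ob/ob, against 9.69% and 13.5% of all genes. The relative median of the list was 0.43 in TBP-2-/- minus WT, 0.24 in ob/ob TBP-2-/- minus ob/ob, 0.15 in the ob/ob array minus WT and -0.003 in ob/ob TBP-2-/- minus TBP-2-/- muscle.

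None of the 7 measured collagen receptors was 2-fold different in any comparison, and none of 7 was called by the limma fit (0 for TBP-2 and 1 for ob/ob at an unadjusted p under 0.05, against 9.69% and 13.5% of all genes). Among 7 measured proteases and inhibitors, Timp1, an inhibitor of matrix metalloproteinases, had 1.18, 0.691, 0.813 and 0.389 in ob/ob TBP-2-/-, ob/ob, TBP-2-/- and WT muscle and was higher by 1.06 (log2) in TBP-2-/- than in WT muscle, 1 of 7 against a background of 1.72%. Mmp9, a gelatinase that cuts denatured collagen, had 0.131, 0.0777, 0.236 and 0.263 and was lower in ob/ob than in WT muscle (-1.76, log2), 1 of 7 against 1.66%. The fit called 0 of these 7 for either term, with 2 for TBP-2 and 3 for ob/ob at an unadjusted p under 0.05, against the same shares of all genes.

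Other probes of the same genes were used to check the brightest. Of the 40 genes, 29 had more than 1 probe, and 22 of the 81 probes were above background on no array. The direction was the same for 16 of 17 other probes in TBP-2-/- minus WT, 16 of 18 in ob/ob TBP-2-/- minus ob/ob, 16 of 17 for ob/ob minus WT muscle, and 14 of 19 in ob/ob TBP-2-/- minus TBP-2-/-. Few of these probes belong to genes past 2-fold by the brightest probe. For such genes 3 of 4 other probes kept the direction in TBP-2-/- minus WT and 2 of 2 in ob/ob TBP-2-/- minus ob/ob. The count was 5 of 5 for ob/ob minus WT and 1 of 2 in ob/ob TBP-2-/- minus TBP-2-/-. Col9a1 and Col8a2 have a single probe each, and the other probes of Col12a1, Col13a1 and Col16a1 were above background on no array. The median gap over all other probes lay between 0.12 and 0.26. Col11a2 had the largest gap in the first 3 comparisons, 2.73 at most, and Col19a1 in the last, 2.28.

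**Figure D5:**
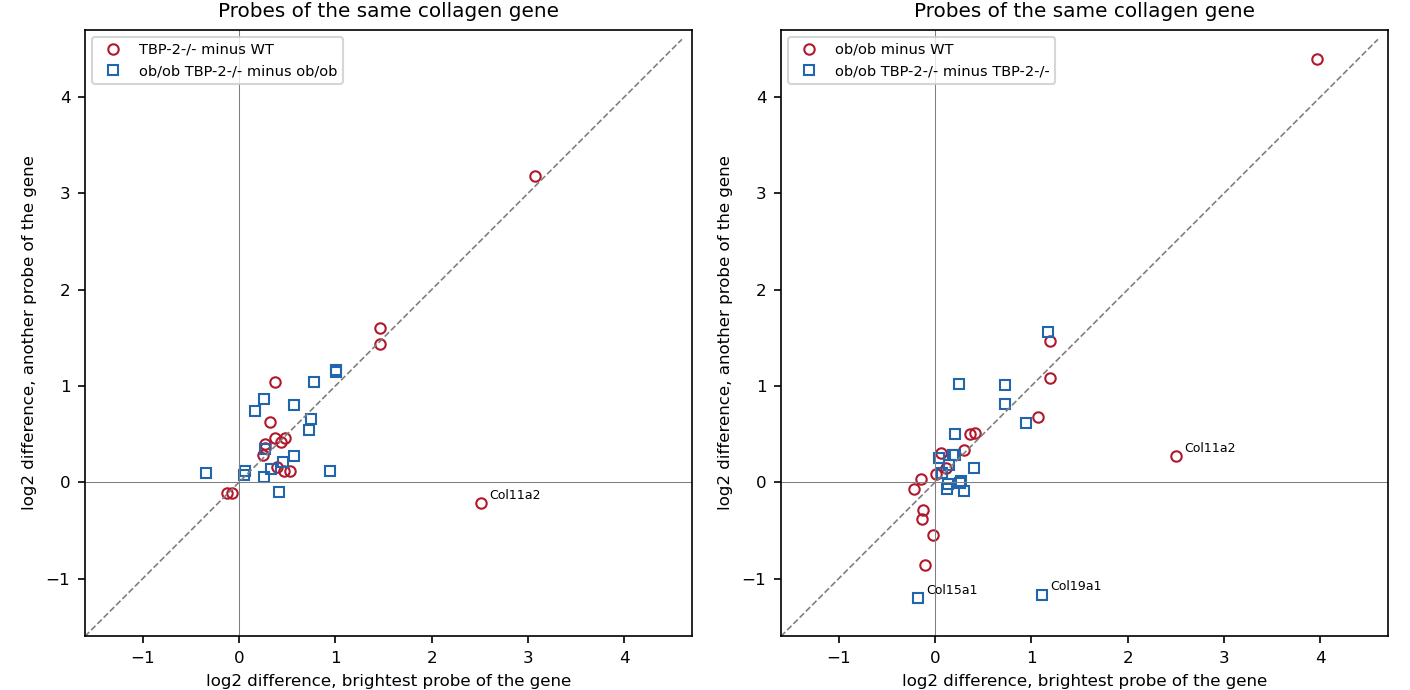
Log2 difference of every other measured probe of a collagen gene (up) against that of its brightest probe (across), for the comparisons with TBP-2 loss (left) and with the ob/ob genotype (right); circles are the comparisons against WT and squares those among ob/ob TBP-2-/- and the single mutants. Most probes lie near the dashed line of equality, and Col11a2, Col19a1 and Col15a1 are named where the gap is 1 or more.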

How the data were processed

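The arrays were Agilent mouse 4x44K arrays with 1 colour (Cy3), 1 per genotype. Per the labels' protocols, the tissue was stored in RNAlater, the extraction used a fibrous-tissue kit, and each labelling took 0.5 micrograms of RNA plus spike-ins. The deposited scanner files hold an intensity for each spot, made with Agilent Feature Extraction 9.5.3.1, background-subtracted and corrected for spatial trends with no scaling across arrays, per the file headers. The authors' deposited value table is on the log2 scale; over 21736 probes it matched the values used here within a median of 0.00601 or less (log2) once each probe was centred on its median, with column medians of 0.00913, -0.0116, -0.0621 and 0.0912 in ob/ob TBP-2-/-, ob/ob, TBP-2-/- and WT muscle, so it keeps differences and no levels.

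Levels are log2 of the processed signal, from which was taken log2 of the array's 75th percentile over 43379 non-control spots; between 59 and 110 outlier spots per array were left out. That percentile was 273 in ob/ob TBP-2-/-, 321 in ob/ob, 321 in TBP-2-/- and 293 in WT muscle. Probes with replicate spots had a median SD of 0.0612 to 0.0728 (log2), and the precision is limited by the 4 arrays. A difference needed both arrays well above background. The fit used limma 3.58.1 (lmFit, eBayes) in R 4.3.3 on genes that 2 or more arrays measured above background, with an adjusted p threshold of 0.05 and 3.552 prior degrees of freedom, and was tested on simulated data. No label says that samples came from separate mice.

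Given on every array are the 3 brightest members of each class, members past 2-fold in a comparison or called, and the junction collagens. From the lists of genes that make, process, bind and degrade collagen, up to 4 members past 2-fold are named. Cell type markers were named as examples, and not every marker past 2-fold is named. The members and lists were chosen with earlier results of these data known. Probe coordinates come from the annotation in the files (mm8). Alternatives were quantile and spike-in scaling, normexp background correction with quantile normalization, the median of a gene's probes, detection on all 4 arrays, a 1.5-fold threshold, the value table and a variance trend.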

Additional observations from a re-analysis of the deposited data

Results flagged for a closer look

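Col17a1 differed in sign between the backgrounds. With TBP-2 loss it was higher on the ob/ob background (0.99) and lower on the lean background (-0.72), a difference of 1.71 that was not tested. Its signals lay between 0.0444 and 0.0979 of the 75th percentile, near background, and its other probe was above background on no array.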

How the results depend on the processing

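No paired analysis was possible because each genotype has 1 array and no replicate number. For the same reason no replicate can be left out; the WT array, which stands apart, enters TBP-2-/- minus WT and ob/ob minus WT and not the other comparisons. Relative medians did not move, or moved within 1 SE, in 117 of 120 class and setting combinations. The rest were FACIT medians with normexp and quantile normalization, which were smaller (0.44, 0.29 and 0.44) and kept their direction. The cause of the changes below was not tested. The count of collagens 2-fold or more lower in WT was not a planned result, and its alternatives were also chosen after seeing the data. It was 9 by the 75th percentile and by quantile normalization, 10 with spike-in scaling, and 6 with normexp and with detection on all 4 arrays. Over all genes the share was 0.836% by the 75th percentile, and no share is given for the alternatives. Also added after seeing the data, WT was lowest for 21 of 32 collagens with quantile normalization (25.6% of all genes) and with normexp and quantile normalization (25.7%). The ob/ob TBP-2-/- array was highest for 24 (28.9%) and 23 (29.2%).

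Spike-in scaling shifts all genes by 0.25 in TBP-2-/- minus WT, -0.53 in ob/ob TBP-2-/- minus ob/ob, 0.66 for ob/ob minus WT, and -0.12 for ob/ob TBP-2-/- minus TBP-2-/-. With it, 0 collagens were higher and 2 lower in ob/ob TBP-2-/- minus ob/ob, and 13 higher and 0 lower for ob/ob minus WT. In ob/ob TBP-2-/- minus TBP-2-/- muscle 3 were higher. The limma fit then called 3 higher for TBP-2 and 6 for ob/ob, with 1 pooled variance for all genes. With normexp and quantile normalization the counts were 1 higher in ob/ob TBP-2-/- minus ob/ob, 0 lower for ob/ob minus WT, and 2 higher for ob/ob TBP-2-/- minus TBP-2-/-, the relative FACIT median was 0.44 in TBP-2-/- minus WT, 0.29 for ob/ob minus WT, and 0.44 for ob/ob TBP-2-/- minus TBP-2-/-, and the fit called 1 collagen, Col1a2, for TBP-2. At 1.5-fold, 2 collagens were lower in TBP-2-/- minus WT, 12 higher and 1 lower in ob/ob TBP-2-/- minus ob/ob, and 14 higher in ob/ob TBP-2-/- minus TBP-2-/-. No share of all genes is given at that threshold or for the 2-fold counts with spike-in scaling or normexp. Those counts therefore have no background to be read against. A variance trend called 7 collagens higher for ob/ob. Over all genes the fit's calls for TBP-2 ranged between 0 (quantile) and 77 higher (trend), and for ob/ob between 0 and 185 higher and 0 and 201 lower.

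Other probes turned some differences round: the other Col11a2 probe gave -0.22 in TBP-2-/- minus WT, and for Col19a1 in ob/ob TBP-2-/- minus TBP-2-/- the median of probes gave -0.028 and another probe -1.17. Signals below about 0.04 of the 75th percentile were not measurable in WT muscle, which limits Col8a2, Col12a1, Col13a1 and Col27a1 to bounds there. The brightest Col25a1 probe has no measured difference from WT muscle for the same reason.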

Other observations

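Some collagens carry other names on the array and stand outside the rule by name. Col26a1, named Emid2 on the array, had raw signals of 165 in ob/ob TBP-2-/-, 127 in ob/ob, 128 in TBP-2-/- and 86.2 in WT muscle. Its log2 differences lay between 0.42 and 0.61 in the 4 comparisons, and WT was lowest here too. A probe of Col6a4, a type VI chain, had 26.2, 31.2, 28.3 and 34.8 in the same order, and another probe of Col6a4 and the probe of Col6a6 were above background on no array.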
